A study of Homo sapiens with 8 samples.

Results

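The 10 genes described here are SESN1, SESN2, SESN3, TIGAR, TP53I3, FDXR, RRM2B, GLS2, SCO2 and SPATA18. They are known targets of the tumour suppressor p53 with roles in metabolism and redox control. They were chosen by name, with earlier results of these data known. All 10 were found among the 49733 gene IDs of the deposited tables, of which 26741 had a count in any library. Sequencing was of poly-A RNA from HepG2, an established human hepatocellular carcinoma line that carries wild-type p53. Cells at 80% confluence received 2 µM benzo[a]pyrene (BaP) or its solvent, 0.5% DMSO, in fresh medium. There were 2 libraries, from separate experiments, in each of 4 groups: BaP 12 h, vehicle 12 h, BaP 24 h and vehicle 24 h.

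The transcription factor p53 is held at low levels by MDM2 and accumulates when DNA is damaged, here by the DNA-binding metabolites of BaP that cytochrome P450 enzymes form. Besides arrest and death genes it switches on enzymes that handle peroxides, sugar phosphates, quinones, iron-sulfur clusters, deoxynucleotides, glutamine and mitochondrial quality. In liver cells such genes are studied as the arm of the p53 response that adjusts metabolism while DNA is repaired.

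The exposure was visible in every library. CYP1A1, the P450 enzyme that oxidises BaP, had 966 and 1059.8 CPM (read counts scaled to library depth) in BaP 12 h libraries, against 6.57 and 3.49 CPM in vehicle 12 h libraries. At 24 h it had 376 and 306 CPM with BaP, against 1.61 and 1.50 CPM with vehicle. The cell cycle inhibitor CDKN1A rose by 2.02 ± 0.15 (log2, SE) at 12 h and 1.87 ± 0.15 at 24 h, and the p53 antagonist MDM2 by 1.21 ± 0.13 and 1.02 ± 0.14. Every adjusted p in this text is from edgeR's quasi-likelihood test, corrected by Benjamini and Hochberg over 14746 genes unless another test is named, and a gene "rose" or "fell" where it is under 0.05. Library totals ran from 2592272 counts (BaP 24 h replicate 1) to 16533490 (BaP 24 h replicate 2). Of 8 hepatocyte marker genes all were detected in all libraries, and their summed level was lower with BaP, at 18992 to 20266 CPM in BaP 12 h and 24876 to 27162 CPM in vehicle 12 h libraries. At 24 h that sum was 21625 to 24131 CPM with BaP and 29352 to 33617 CPM with vehicle, and APOB was the marker that fell at both times. Of 5 fibroblast and stellate markers, LUM was at 0 throughout, PDGFRB fell at 12 h, and their sum was 20.0 to 28.9 CPM in BaP 12 h and 35.3 to 59.9 CPM in vehicle 12 h libraries. It was 25.8 to 31.5 CPM in BaP 24 h and 39.6 to 57.2 CPM in vehicle 24 h libraries. Of 4 leukocyte and Kupffer markers, CD163 and MARCO were at 0, and CD68, which rose at 24 h, made up nearly all of a sum of 51.8 to 56.1 CPM in BaP 24 h and 36.4 to 37.4 CPM in vehicle 24 h libraries. KDR was at 0 among the endothelial markers, which summed to at most 3.19 CPM. Among the cholangiocyte markers CFTR was at 0, and SOX9 made up nearly all of a sum of 258 to 345 CPM. All libraries came from the HepG2 line. In its bulk RNA, fewer cells holding a transcript and less of it per cell cannot be told apart. The part of these shifts in the results below was not tested.

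All 10 genes passed the filter on low counts. The counts below describe genes chosen with earlier results of these data known, and are no independent test of the group. With BaP at 12 h, 5 of the 10 rose and 0 fell, where 3.41% of all genes tested rose and 4.84% fell. At 24 h, 6 of the 10 rose and 0 fell, where 3.11% of all genes rose and 2.20% fell. The median log2 fold change of the 10 was 0.69 at 12 h and 0.76 at 24 h, beside 0.02 and 0.01 over all genes tested. In the same tests of BaP against vehicle, 19.6% of all genes at 12 h and 20.0% at 24 h had an unadjusted p under 0.05. TP53I3, FDXR, SESN2, TIGAR and SESN1 rose at both times, and GLS2 rose at 24 h. RRM2B, SCO2, SPATA18 and SESN3 did not pass at either time. With 1 library left out, the number that rose at 24 h was 7 where this was BaP 24 h replicate 1, the shallowest library, and 5 where it was BaP 24 h replicate 2. Leaving out vehicle 24 h replicate 1 gave 4 genes, and leaving out vehicle 24 h replicate 2 gave 3. At 12 h it was 5 without vehicle 12 h replicate 2 and 3 without any 1 of the other libraries of that time.

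**Figure D1:**
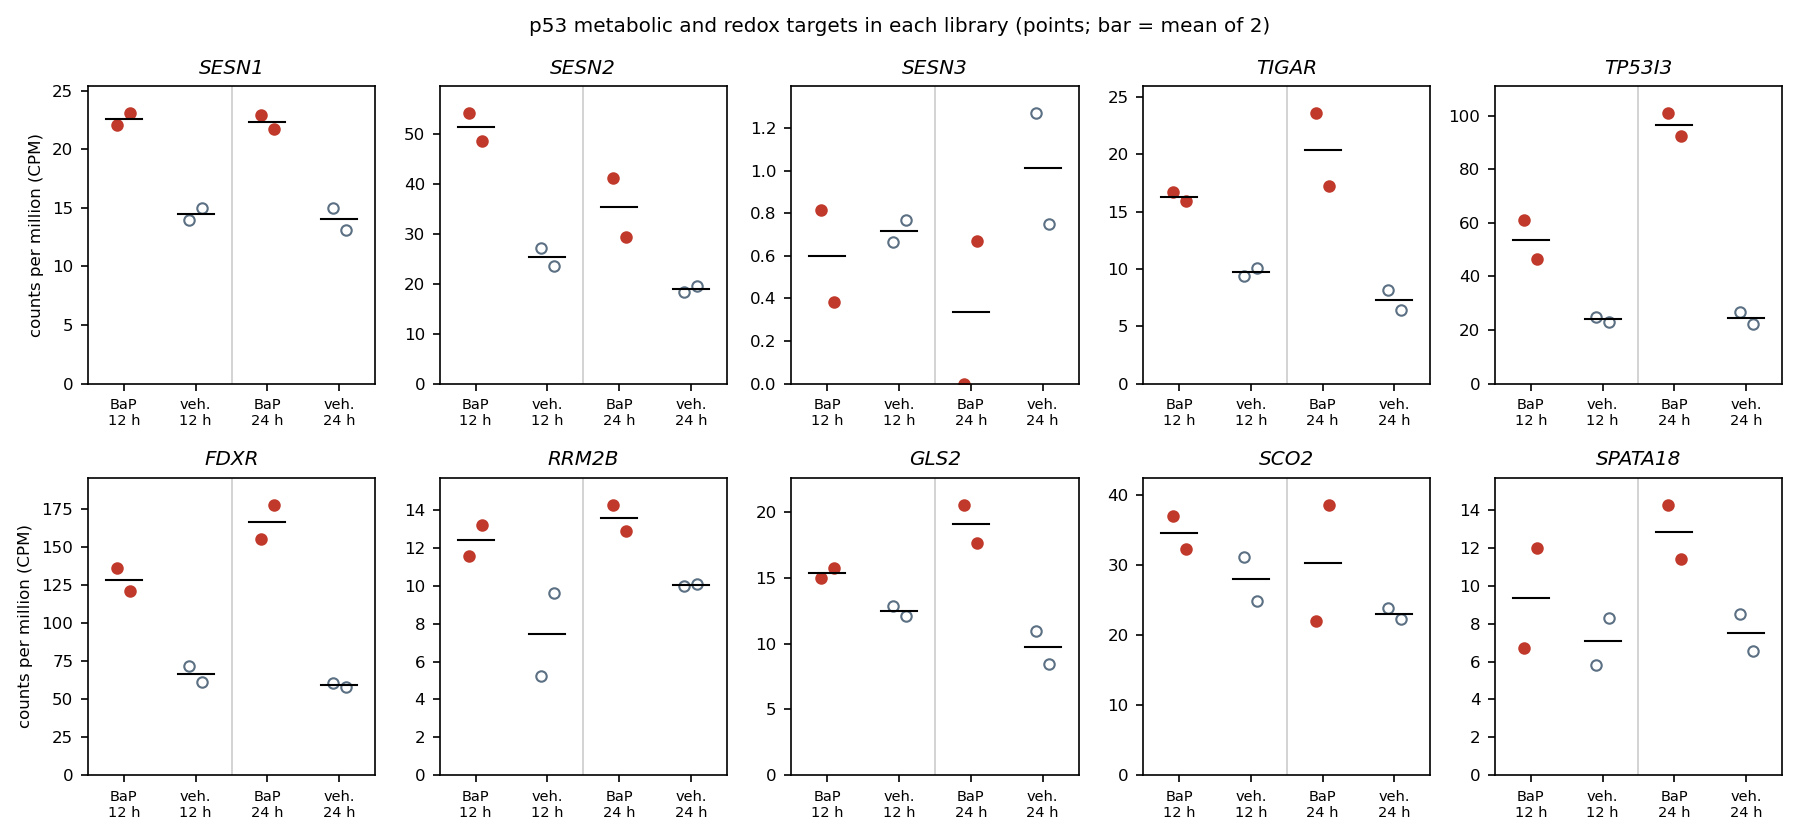
Level of each of the 10 genes in CPM (vertical axis, linear from 0, scale set per gene) in the 8 libraries; filled points are BaP libraries, open points vehicle libraries and bars the mean of 2. BaP libraries lie above both vehicle libraries of their time for SESN1, SESN2, TIGAR, TP53I3, FDXR, RRM2B and GLS2 at both times. Of these, RRM2B did not pass at either time and GLS2 did not pass at 12 h. How many of all genes lie apart in this way was not counted. SESN3 stays under 1.3 CPM.

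The sestrins are stress-induced proteins that restrain the growth kinase complex mTORC1 through the GATOR complexes, and SESN2 also senses leucine. SESN1 (ENSG00000080546) had 22.1 and 23.1 CPM in BaP 12 h libraries, against 14.0 and 15.0 CPM in vehicle 12 h libraries. The 24 h values were 22.9 and 21.7 CPM with BaP and 15.0 and 13.1 CPM with vehicle. The BaP libraries lay above the vehicle libraries at each time and the gap was nearly the same size. The log2 fold change was 0.64 ± 0.15 at 12 h (adjusted p = 0.011) and 0.63 ± 0.16 at 24 h (adjusted p = 0.031), n = 2 libraries per group as throughout. Neither call held whichever library was left out. At 12 h the change was 0.67 (adjusted p = 0.080) without BaP 12 h replicate 1, 0.59 (adjusted p = 0.13) without BaP 12 h replicate 2 and 0.59 (adjusted p = 0.064) without vehicle 12 h replicate 1. At 24 h it was 0.68 (adjusted p = 0.17) without BaP 24 h replicate 2, 0.75 (adjusted p = 0.15) without vehicle 24 h replicate 1 and 0.55 (adjusted p = 0.24) without vehicle 24 h replicate 2. DESeq2's Wald test did not call SESN1 at 12 h (adjusted p = 0.055) or at 24 h (adjusted p = 0.12).

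SESN1 has alternative first exons, and its RefSeq starts differ in the motifs next to them, so the bases upstream of its more proximal starts are shown, 5′ to 3′ on the minus strand of GRCh38.p14. Capitals mark the p53 half-site in the first and the core of the AHR response element, GCGTG, in the second. The first stretch, chr6:109008989-109009238, ends at the base before the start of transcript SESN1-201 and lies in an intron of SESN1-202, and the second, chr6:109009556-109009802, ends before the start of SESN1-202.
SESN1-201: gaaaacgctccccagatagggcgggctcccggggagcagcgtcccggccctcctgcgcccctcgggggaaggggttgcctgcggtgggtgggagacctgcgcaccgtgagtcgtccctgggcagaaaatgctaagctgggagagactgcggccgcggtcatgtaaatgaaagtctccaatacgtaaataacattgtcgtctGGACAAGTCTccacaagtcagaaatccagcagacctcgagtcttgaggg
SESN1-202: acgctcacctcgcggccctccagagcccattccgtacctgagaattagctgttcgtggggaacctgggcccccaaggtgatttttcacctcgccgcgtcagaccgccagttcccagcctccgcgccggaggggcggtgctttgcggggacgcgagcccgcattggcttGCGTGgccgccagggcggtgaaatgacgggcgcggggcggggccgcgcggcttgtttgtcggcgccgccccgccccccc
The half-site begins 49 bases before the RefSeq start, and the GCGTG core 82 bases before its own. SESN1-202 held 86.2% of all SESN1 counts and SESN1-201 10.6%. The share of SESN1-201 was 15.0% and 14.3% in BaP 12 h libraries against 30.6% and 0.0% in vehicle 12 h libraries, and 0.0% and 7.3% in BaP 24 h against 0.0% and 12.7% in vehicle 24 h libraries. The shares overlapped between groups at both times.

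SESN2 (ENSG00000130766), the paralogue that other stress pathways also induce, had 54.3 and 48.7 CPM in BaP 12 h libraries, against 27.3 and 23.5 CPM in vehicle 12 h libraries. With 24 h of BaP it had 41.3 and 29.4 CPM, and with 24 h of vehicle 18.3 and 19.5 CPM. BaP and vehicle libraries did not overlap at either time, and the libraries of each treatment sat lower at 24 h than at 12 h. It rose by 1.02 ± 0.15 (log2) at 12 h (adjusted p = 3.4e-04) and by 0.84 ± 0.17 at 24 h (adjusted p = 0.0095). Leaving out vehicle 24 h replicate 1 (0.79, adjusted p = 0.14) or vehicle 24 h replicate 2 (0.89, adjusted p = 0.055) ended the 24 h call. All counts of SESN2 went to its single listed transcript.

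SESN3 (ENSG00000149212), the sestrin best known as a FOXO target, was close to the detection limit. It had 7 and 5 counts in BaP 12 h libraries, against 9 and 11 in vehicle 12 h libraries, and 0 and 10 in BaP 24 h against 15 and 4 in vehicle 24 h libraries. In CPM that was 0.814 and 0.385, against 0.664 and 0.769, at 12 h, and 0 and 0.669, against 1.27 and 0.750, at 24 h. A count of 0 in BaP 24 h replicate 1 allows up to 1.13 CPM. The fold changes, -0.33 ± 0.68 (adjusted p = 0.86) and -0.99 ± 0.73 (adjusted p = 0.49), did not pass, and a difference was not detectable at this depth. The 24 h value was -0.51 without vehicle 24 h replicate 1. Without BaP 24 h replicate 2 the only BaP 24 h library had 0 counts, and the fitted -6.43 then depends on the prior count and is no bound.

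Of 27 tested genes for sestrin partners and amino acid sensing upstream of mTORC1, 0 rose and 2 fell at 12 h, and 0 passed at 24 h, with medians of -0.05 and -0.01. The 2 that fell were RPTOR, the scaffold of mTORC1, and MTOR, its kinase. RPTOR had 36.3 and 38.6 CPM in BaP 12 h libraries, against 129.6 and 122 CPM in vehicle 12 h libraries. Its log2 fold change was -1.75 ± 0.11 at 12 h (adjusted p = 4.2e-08). MTOR changed by -0.46 ± 0.12 (adjusted p = 0.022), which did not pass without BaP 12 h replicate 1 (-0.32, adjusted p = 0.41), without vehicle 12 h replicate 1 (-0.44, adjusted p = 0.12) or without vehicle 12 h replicate 2 (-0.51, adjusted p = 0.059). At 24 h 1 gene of the list, the arginine sensor CASTOR1, had an unadjusted p under 0.05 (2.66 ± 0.81, adjusted p = 0.077), at no more than 2.23 CPM in any library and 0 in vehicle 24 h replicate 1. DESeq2 called 0 of these genes at 24 h and edgeR's exact test 1. Of 6 peroxiredoxins, the peroxide-reducing enzymes linked to the sestrins, 0 passed at either time. An unadjusted p under 0.05 was found for 0 at 12 h and 2 at 24 h, beside 19.6% and 20.0% of all genes tested. DESeq2 called 0 and 1 of the 6 and the exact test 0 and 0. PRDX1 had the smallest p at both times (0.28 ± 0.16, adjusted p = 0.37, and 0.50 ± 0.16, adjusted p = 0.090).

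TIGAR (ENSG00000078237) is a fructose-bisphosphatase that lowers fructose 2,6-bisphosphate and diverts glucose into the pentose phosphate pathway. It had 16.7 and 15.9 CPM in BaP 12 h libraries, against 9.37 and 10.1 CPM in vehicle 12 h libraries. Libraries of BaP 24 h gave 23.6 and 17.2 CPM and those of vehicle 24 h 8.15 and 6.38 CPM. BaP libraries were higher at both times, with the wider gap at 24 h. The log2 fold change was 0.74 ± 0.18 at 12 h (adjusted p = 0.016) and 1.37 ± 0.21 at 24 h (adjusted p = 8.6e-04). The 12 h call was lost without any 1 of its 4 libraries: without BaP 12 h replicate 1 (0.71, adjusted p = 0.14), BaP 12 h replicate 2 (0.76, adjusted p = 0.10), vehicle 12 h replicate 1 (0.69, adjusted p = 0.095) or vehicle 12 h replicate 2 (0.78, adjusted p = 0.055). DESeq2's Wald test did not call TIGAR at 12 h (adjusted p = 0.073). The 24 h call held in all 4 such fits and by DESeq2. TIGAR's expected counts were not whole numbers in 7 of the 8 libraries. Of 8 tested genes for the enzymes that make or remove fructose 2,6- and 1,6-bisphosphate, 0 passed at either time, with medians of -0.20 and -0.32. An unadjusted p under 0.05 was found for 1 and 2 of the 8, beside 19.6% and 20.0% of all genes tested. DESeq2 called 0 and 0 of the 8 and the exact test 0 and 1. The smallest p was that of PFKFB1 at 12 h (-0.95 ± 0.41, adjusted p = 0.21) and of PFKFB4 at 24 h (-0.55 ± 0.17, adjusted p = 0.083). Both encode enzymes that can make and remove fructose 2,6-bisphosphate.

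TP53I3 (ENSG00000115129), also called PIG3, is an NADPH-dependent quinone reductase and showed the largest rise of the 10 at both times, narrowly at 12 h. It had 60.9 and 46.5 CPM in BaP 12 h libraries, against 24.9 and 23.1 CPM in vehicle 12 h libraries. At 24 h it had 101 and 92.4 CPM with BaP, against 26.8 and 22.3 CPM with vehicle. The vehicle level was nearly the same at both times, and each BaP 24 h library lay above each BaP 12 h library. TP53I3 rose by 1.16 ± 0.15 (log2) at 12 h (adjusted p = 6.4e-05) and by 1.95 ± 0.15, or 3.86-fold, at 24 h (adjusted p = 1.5e-06). Both calls held in all 12 alternative analyses of each time. The first rank at 12 h was less firm, with SESN2 close (1.02 ± 0.15). Without vehicle 12 h replicate 2, RRM2B changed by 1.23 and TP53I3 by 1.08. The antisense gene FAM228B overlaps the whole of TP53I3 and the use of strand in counting is not stated; its change was -0.38 ± 0.24 at 12 h (adjusted p = 0.45) and 0.11 ± 0.27 at 24 h (adjusted p = 0.88).

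Of 8 tested relatives of TP53I3 in the quinone oxidoreductase family, 1 rose at 12 h and 2 rose at 24 h, and 0 fell. PTGR1, which reduces the double bond of prostaglandins and of reactive aldehydes, had 57.4 and 57.0 CPM in BaP 12 h libraries, against 12.9 and 15.2 CPM in vehicle 12 h libraries. The 24 h values were 74.7 and 69.7 CPM with BaP and 10.4 and 9.56 CPM with vehicle. Its log2 fold change was 2.02 ± 0.13 at 12 h (adjusted p = 4.7e-08) and 2.83 ± 0.15 at 24 h (adjusted p = 1.3e-08). VAT1 rose by 0.44 ± 0.12 at 24 h (adjusted p = 0.042), which did not pass without BaP 24 h replicate 2 (0.41, adjusted p = 0.12), vehicle 24 h replicate 1 (0.44, adjusted p = 0.30) or vehicle 24 h replicate 2 (0.44, adjusted p = 0.27). The family median was 0.04 at 12 h and 0.20 at 24 h.

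FDXR (ENSG00000161513) is the mitochondrial ferredoxin reductase that passes electrons from NADPH to ferredoxin for steroid and iron-sulfur cluster synthesis, and is widely used as a blood marker of radiation dose. It had 136 and 121 CPM in BaP 12 h libraries, against 71.7 and 61.3 CPM in vehicle 12 h libraries. With 24 h of BaP it had 155 and 178 CPM, and with 24 h of vehicle 60.3 and 57.9 CPM. All 4 BaP libraries lay well above all 4 vehicle libraries. FDXR rose by 0.95 ± 0.12 (log2) at 12 h (adjusted p = 8.1e-05) and by 1.50 ± 0.13 at 24 h (adjusted p = 3.9e-06), and both calls held in all 12 alternative analyses of each time.

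A p53 half-site begins 11 bases before one of the 2 RefSeq starts of FDXR. It is shown in capitals with its flanks, chr17:74872986-74873015 on the minus strand of GRCh38.p14, in the first exon of the GENCODE 29 transcript FDXR-201.
FDXR: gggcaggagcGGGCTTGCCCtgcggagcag
The windows searched ran from 250 bases before to 50 after each RefSeq start, and 8 of the 10 genes had 11 windows between them. A p53 half-site, searched on both strands, was in 2 of the 11 (18.2%), those of FDXR and SESN1 shown here, and in 6.63% of all 35116 windows. A GCGTG core on either strand was in 2 of the 11 (18.2%), SESN1 and SPATA18, and in 36.5% of all windows. No base was shared by matches of the 2 motifs. The windows of TP53I3, TIGAR, SESN2 and GLS2, which rose, held neither. The search took only exact matches to each pattern within these windows, so sites elsewhere or of another form were not looked for.

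Of 13 tested genes for ferredoxin and iron-sulfur cluster assembly, 0 passed at 12 h and 2 rose at 24 h, with medians of -0.07 and 0.24. FDX1, the ferredoxin that FDXR reduces, had 13.9 and 16.7 CPM in BaP 24 h libraries, against 6.96 and 9.38 CPM in vehicle 24 h libraries. Its 24 h change was 0.99 ± 0.21 (adjusted p = 0.010). ISCU, the scaffold protein on which iron-sulfur clusters are built, rose by 0.65 ± 0.16 at 24 h (adjusted p = 0.026). FDX1 did not pass when BaP 24 h replicate 2 (0.81, adjusted p = 0.23) or vehicle 24 h replicate 1 (0.74, adjusted p = 0.24) was left out. The same held for ISCU with BaP 24 h replicate 2 (0.36, adjusted p = 0.44), vehicle 24 h replicate 1 (0.52, adjusted p = 0.32) or vehicle 24 h replicate 2 (0.75, adjusted p = 0.086). At 12 h 3 of the 13 had an unadjusted p under 0.05, beside 19.6% of all genes tested. ISCU was among the 3 (0.49 ± 0.15, adjusted p = 0.061). DESeq2 called 0 of the 13 at 12 h and the exact test 1.

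RRM2B (ENSG00000048392), the p53-inducible small subunit of ribonucleotide reductase that supplies deoxynucleotides outside S phase, was less clear. It had 11.6 and 13.2 CPM in BaP 12 h libraries, against 5.24 and 9.64 CPM in vehicle 12 h libraries. Libraries of BaP 24 h gave 14.3 and 12.9 CPM and those of vehicle 24 h 10.0 and 10.1 CPM. The BaP libraries were above the vehicle libraries at each time, but vehicle 12 h replicate 1 stood well below the other 3 vehicle libraries. The log2 fold change was 0.74 ± 0.23 at 12 h (adjusted p = 0.059) and 0.41 ± 0.25 at 24 h (adjusted p = 0.39). At 12 h 7 of 12 alternative analyses called it higher, and over the 12 the change ranged from 0.38 to 1.23; it was 1.23 without vehicle 12 h replicate 2 (adjusted p = 0.0039). Of 12 other genes for ribonucleotide reductase and deoxynucleotide supply, 1 rose and 1 fell at 12 h and 1 rose at 24 h, with medians of 0.02 and -0.05. RRM2, the S-phase small subunit, rose by 0.51 ± 0.12 at 12 h (adjusted p = 0.015). SAMHD1, which breaks deoxynucleotides down, changed by -0.46 ± 0.12 at 12 h (adjusted p = 0.029). The nucleoside diphosphate kinase NME1 rose by 0.83 ± 0.18 at 24 h (adjusted p = 0.021). Each of these 3 calls was lost without 3 of the 4 libraries of its comparison, with changes of 0.41 to 0.61 for RRM2, -0.57 to -0.35 for SAMHD1 and 0.44 to 1.11 for NME1, and the highest adjusted p was 0.22 for RRM2, 0.20 for SAMHD1 and 0.17 for NME1. The libraries concerned were both BaP 12 h replicates and vehicle 12 h replicate 1 for RRM2, both BaP 12 h replicates and vehicle 12 h replicate 2 for SAMHD1, and BaP 24 h replicate 2 and both vehicle 24 h replicates for NME1.

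GLS2 (ENSG00000135423), the liver-type glutaminase that turns glutamine into glutamate, had 15.0 and 15.8 CPM in BaP 12 h libraries, against 12.9 and 12.1 CPM in vehicle 12 h libraries. At 24 h it had 20.6 and 17.7 CPM with BaP, against 11.0 and 8.44 CPM with vehicle. The groups were separate at both times, narrowly at 12 h and by more at 24 h. Its change was 0.30 ± 0.17 at 12 h (log2, adjusted p = 0.34) and 0.91 ± 0.19 at 24 h (adjusted p = 0.0089), and the 24 h call was lost without vehicle 24 h replicate 2 (0.77, adjusted p = 0.11). SPRYD4, antisense to GLS2 and overlapping it, changed by 0.02 ± 0.17 (adjusted p = 0.97) and 0.28 ± 0.19 (adjusted p = 0.44). Of 12 other genes of glutamine metabolism, 1 rose and 2 fell at 12 h and 1 rose and 1 fell at 24 h, with medians of 0.06 and -0.11. Glutamate dehydrogenase, GLUD1, had 179 and 221 CPM in BaP 12 h against 280.0 and 301 CPM in vehicle 12 h libraries, and fell at both times (-0.54 ± 0.13, adjusted p = 0.018, and -0.71 ± 0.14, adjusted p = 0.0058). The alanine aminotransferase GPT2 changed by -0.55 ± 0.13 at 12 h (adjusted p = 0.013) and the aspartate aminotransferase GOT1 by 0.69 ± 0.16 at 24 h (adjusted p = 0.026). Each call of these 3 genes was lost without 3 of the 4 libraries of its comparison (2 for GLUD1 at 24 h). These were both BaP 12 h replicates and vehicle 12 h replicate 1 for GPT2, BaP 12 h replicate 1 and both vehicle 12 h replicates for GLUD1, both vehicle 24 h replicates for GLUD1 at 24 h, and the same with BaP 24 h replicate 2 for GOT1. With 1 library left out the changes lay between -0.67 and -0.45 for GPT2, -0.71 and -0.39 for GLUD1 at 12 h, -0.84 and -0.58 for GLUD1 at 24 h, and 0.37 and 0.90 for GOT1.

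SCO2 (ENSG00000130489) is a copper chaperone needed to assemble cytochrome c oxidase, the last complex of the respiratory chain. It had 37.0 and 32.4 CPM in BaP 12 h libraries, against 31.2 and 24.9 CPM in vehicle 12 h libraries. The 24 h values were 22.1 and 38.7 CPM with BaP and 23.9 and 22.3 CPM with vehicle. In CPM the groups were narrowly apart at 12 h and overlapped at 24 h. The shallow BaP 24 h replicate 1 had the lowest CPM of all 8 libraries. The fold change was 0.30 ± 0.19 at 12 h (adjusted p = 0.44) and 0.50 ± 0.21 at 24 h (adjusted p = 0.20). The second value turned on which BaP 24 h library was kept: it was 0.73 without BaP 24 h replicate 1 (adjusted p = 0.0042) and -0.07 without BaP 24 h replicate 2 (adjusted p = 0.94). TYMP lies next to SCO2, and its changes were 0.66 ± 0.23 (adjusted p = 0.096) and 0.84 ± 0.27 (adjusted p = 0.082). Of 20 other tested genes for cytochrome c oxidase assembly, 0 passed at either time, with medians of 0.10 and 0.26. An unadjusted p under 0.05 was found for 1 of the 20 at 12 h and 4 at 24 h, beside 19.6% and 20.0% of all genes tested. DESeq2 called 0 and 0 of the 20 and the exact test 0 and 1. The smallest p belonged to SCO1, the paralogue of SCO2, at 12 h (0.35 ± 0.14, adjusted p = 0.19) and to COA6 at 24 h (0.54 ± 0.17, adjusted p = 0.078).

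SPATA18 (ENSG00000163071), also called MIEAP, marks damaged mitochondria for repair or removal. It had 6.74 and 12.0 CPM in BaP 12 h libraries, against 5.83 and 8.31 CPM in vehicle 12 h libraries. With 24 h of BaP it had 14.3 and 11.4 CPM, and with 24 h of vehicle 8.49 and 6.56 CPM. The groups overlapped at 12 h and were separate at 24 h. The change was 0.44 ± 0.26 at 12 h (adjusted p = 0.41), and -0.08 (adjusted p = 0.95) without BaP 12 h replicate 2; it was 0.67 ± 0.29 at 24 h (adjusted p = 0.20). Of 18 other genes of mitochondrial quality control, 1 rose and 0 fell at both times, with medians of 0.06 and 0.04. This was SQSTM1, the p62 receptor that hands cargo to autophagosomes and is itself a known NRF2 target. SQSTM1 had 617 and 637 CPM in BaP 12 h libraries, against 221 and 229 CPM in vehicle 12 h libraries. It rose by 1.48 ± 0.15 at 12 h (adjusted p = 6.4e-06) and by 0.98 ± 0.15 at 24 h (adjusted p = 9.4e-04), the second with an adjusted p of 0.060 and a change of 0.80 without vehicle 24 h replicate 1.

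**Figure D2:**
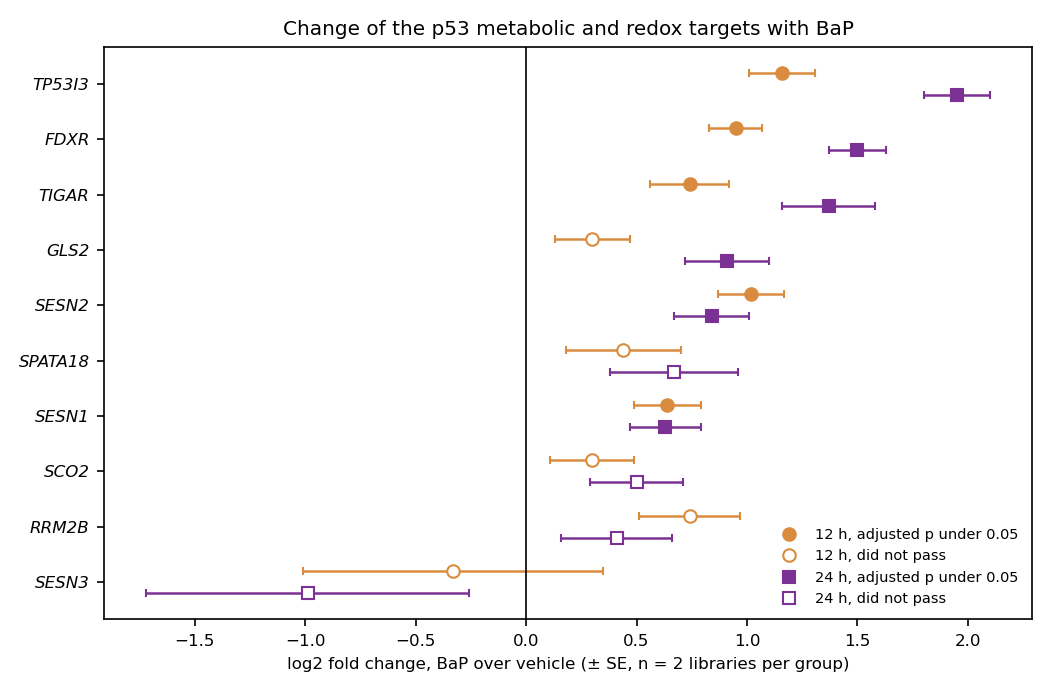
Log2 fold change of BaP over vehicle at 12 h (circles) and 24 h (squares) for the 10 genes, with the SE as bars and n = 2 libraries per group; filled symbols passed an adjusted p under 0.05. TP53I3 reaches 1.95 and FDXR 1.50 at 24 h, and SESN3, with its wide SE, is the 1 gene left of 0.

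Whether the BaP effect differed between the times was tested as the difference of the log2 fold changes, 24 h minus 12 h, in the same fit. Of the 10 genes 0 passed, where 0.543% of all genes did, and 4 had an unadjusted p under 0.05, beside 9.51% of all genes. DESeq2 also called 0. The 4 were TP53I3 (0.79 ± 0.21, adjusted p = 0.14), FDXR (0.55 ± 0.18, adjusted p = 0.25), GLS2 (0.61 ± 0.25, adjusted p = 0.43) and TIGAR (0.63 ± 0.27, adjusted p = 0.46). TP53I3 passed with no filter on low counts (0.79, adjusted p = 0.016) and FDXR without BaP 24 h replicate 1 (0.64, adjusted p = 0.049). SESN1 (-0.01 ± 0.22, adjusted p = 1.0) and SESN2 (-0.18 ± 0.23, adjusted p = 0.86) lay near 0. In vehicle 24 h against vehicle 12 h libraries 0 of the 10 passed, where 3.28% of all genes did, 1 had an unadjusted p under 0.05, beside 16.4% of all genes, and DESeq2 called 0. That gene was SESN2 (-0.43 ± 0.17, adjusted p = 0.19).

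Levels were compared between genes per length, as TPM, the length-corrected share of all transcripts, from the deposited RSEM fractions. FDXR had the highest mean of the 10 in all 4 groups, at 87.5 ± 6.75 TPM (SD, n = 2) in BaP 12 h and 43.7 ± 5.70 in vehicle 12 h, and at 102 ± 6.61 in BaP 24 h and 37.7 ± 2.40 in vehicle 24 h libraries. In vehicle 12 h libraries FDXR (39.7 to 47.8 TPM) overlapped SCO2 (31.7 to 41.2 TPM). In both vehicle groups TP53I3 came behind FDXR and SCO2, at 21.2 ± 5.22 TPM at 12 h and 19.0 ± 4.23 TPM at 24 h. It overlapped SCO2 in BaP 12 h libraries (41.1 to 49.6 TPM for TP53I3 and 43.6 to 48.4 for SCO2), and lay above it in BaP 24 h libraries (58.5 to 86.1 and 31.0 to 40.6). SESN2, SESN1 and GLS2 followed. Among them neighbours overlapped in BaP 24 h libraries, where SESN2 had 8.05 to 14.4 TPM, GLS2 8.12 to 11.2 and SESN1 7.88 to 10.5, and in vehicle 24 h libraries, where SESN1 had 5.32 to 6.86, SESN2 6.06 to 6.08 and GLS2 4.50 to 6.72. In vehicle 12 h libraries GLS2 (6.69 to 7.35 TPM) and SESN1 (6.42 to 7.06 TPM) overlapped. SPATA18 and RRM2B overlapped each other in every group, TIGAR was next to last by mean and SESN3 last in all 4, with a mean of 0.163 to 0.587 TPM for SESN3. RRM2B (2.45 to 4.45 TPM) and TIGAR (1.94 to 3.40 TPM) overlapped in BaP 24 h libraries. SCO2's 24 h groups, which overlapped in CPM, were apart in TPM (31.0 to 40.6 with BaP and 27.4 to 30.5 with vehicle).

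Transcripts with at least 10% of a gene's counts numbered 20 for the 10 genes. Corrected over 38882 transcripts, 0 passed, where 0.0129% of transcripts did at 12 h and 0.00% at 24 h, although 7 and 9 of the 20 had an unadjusted p under 0.05, beside 5.41% and 7.44% of all transcripts tested; the smallest adjusted p was 0.27 and 0.17. For TP53I3, TP53I3-202 held 65.8% and 80.6% of the counts in BaP 24 h libraries, against 49.6% and 59.1% in vehicle 24 h libraries, and 46.4% and 36.0% in BaP 12 h against 35.5% and 57.5% in vehicle 12 h libraries. Its share was thus apart between the groups at 24 h and overlapped at 12 h. TP53I3-201 held 15.7% and 10.2% in BaP 24 h against 26.7% and 27.1% in vehicle 24 h libraries, and 36.0% and 36.1% in BaP 12 h against 18.8% and 29.1% in vehicle 12 h libraries. Its share was thus lower with BaP at 24 h and higher at 12 h, without overlap at either time. The usage test, edgeR's gene-level F-test of whether the transcripts of a gene moved unequally, gave TP53I3 an adjusted p of 0.54 at 24 h. Of 6 members with at least 2 such transcripts, 0 passed that test and 0 had an unadjusted p under 0.05 at either time, where 0.307% of all genes tested passed at 12 h and 0.965% at 24 h. FDXR-201 and FDXR-203 shared most FDXR counts, at 42.2% and 38.8%, and overlapped between groups.

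**Figure D3:**
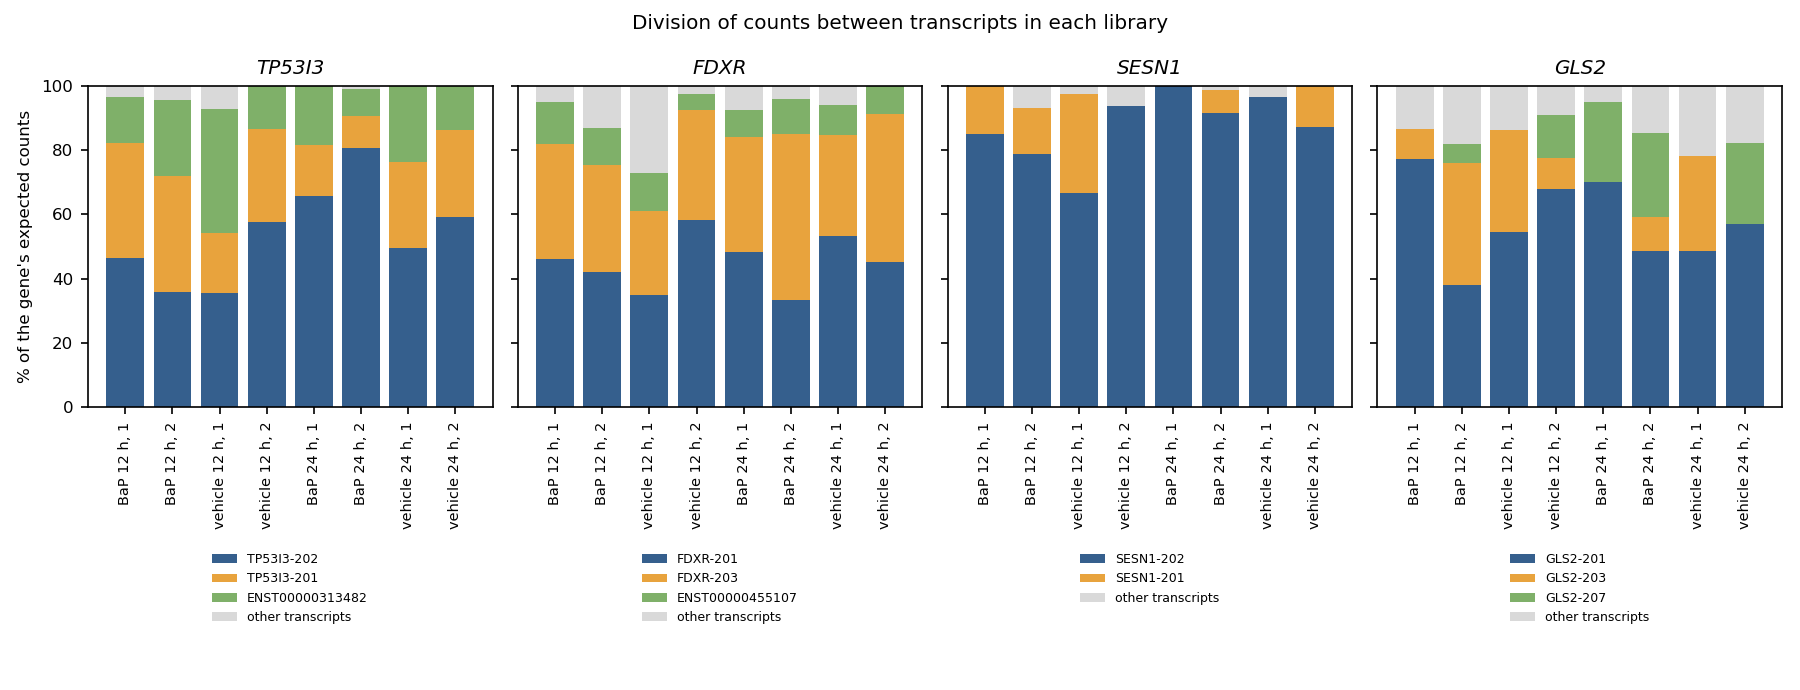
Share of each gene's expected counts (vertical axis, %) given to each transcript with at least 10% of them, in every library (horizontal axis) for TP53I3, FDXR, SESN1 and GLS2. Replicates of 1 group differ widely, as for TP53I3-202 in vehicle 12 h libraries (35.5% and 57.5%), and TP53I3-202 is highest in both BaP 24 h libraries.

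The rest of the p53 programme was read beside the 10 genes from lists of known targets, also chosen with earlier results of these data known. Of 20 core targets in arrest, death and feedback, 17 rose and 0 fell at 12 h and 12 rose and 0 fell at 24 h, with medians of 0.82 and 0.74. BTG2, an antiproliferative gene, rose by 1.41 ± 0.15 at 12 h (adjusted p = 9.7e-06). DDB2, which recognises bulky DNA lesions, rose by 0.94 ± 0.12 (adjusted p = 2.7e-04) and PHLDA3, an inhibitor of AKT, by 1.14 ± 0.15 (adjusted p = 3.7e-04) at 24 h. Of 15 other tested p53 targets in metabolism and redox control, 3 rose at 12 h, 2 rose at 24 h and 0 fell, with medians of 0.29 and 0.32. Those at 12 h were TP53INP1, an autophagy and stress gene that the core list also holds (1.49 ± 0.17, adjusted p = 2.6e-05), the polyamine acetyltransferase SAT1 (0.87 ± 0.17, adjusted p = 0.0047) and NINJ1 (0.45 ± 0.13, adjusted p = 0.034). NINJ1 lost its call without BaP 12 h replicate 1 (0.43, adjusted p = 0.28), BaP 12 h replicate 2 (0.46, adjusted p = 0.20) or vehicle 12 h replicate 2 (0.27, adjusted p = 0.33), and SAT1 without vehicle 12 h replicate 2 (0.80, adjusted p = 0.057). Those at 24 h were the phospholipid transfer protein PLTP (1.22 ± 0.14, adjusted p = 9.7e-05) and AIFM2, a ubiquinone reductase that protects from ferroptosis (1.18 ± 0.16, adjusted p = 8.2e-04). AIFM2 had 105 and 148 CPM in BaP 24 h libraries, against 60.2 and 53.1 CPM in vehicle 24 h libraries.

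**Figure D4:**
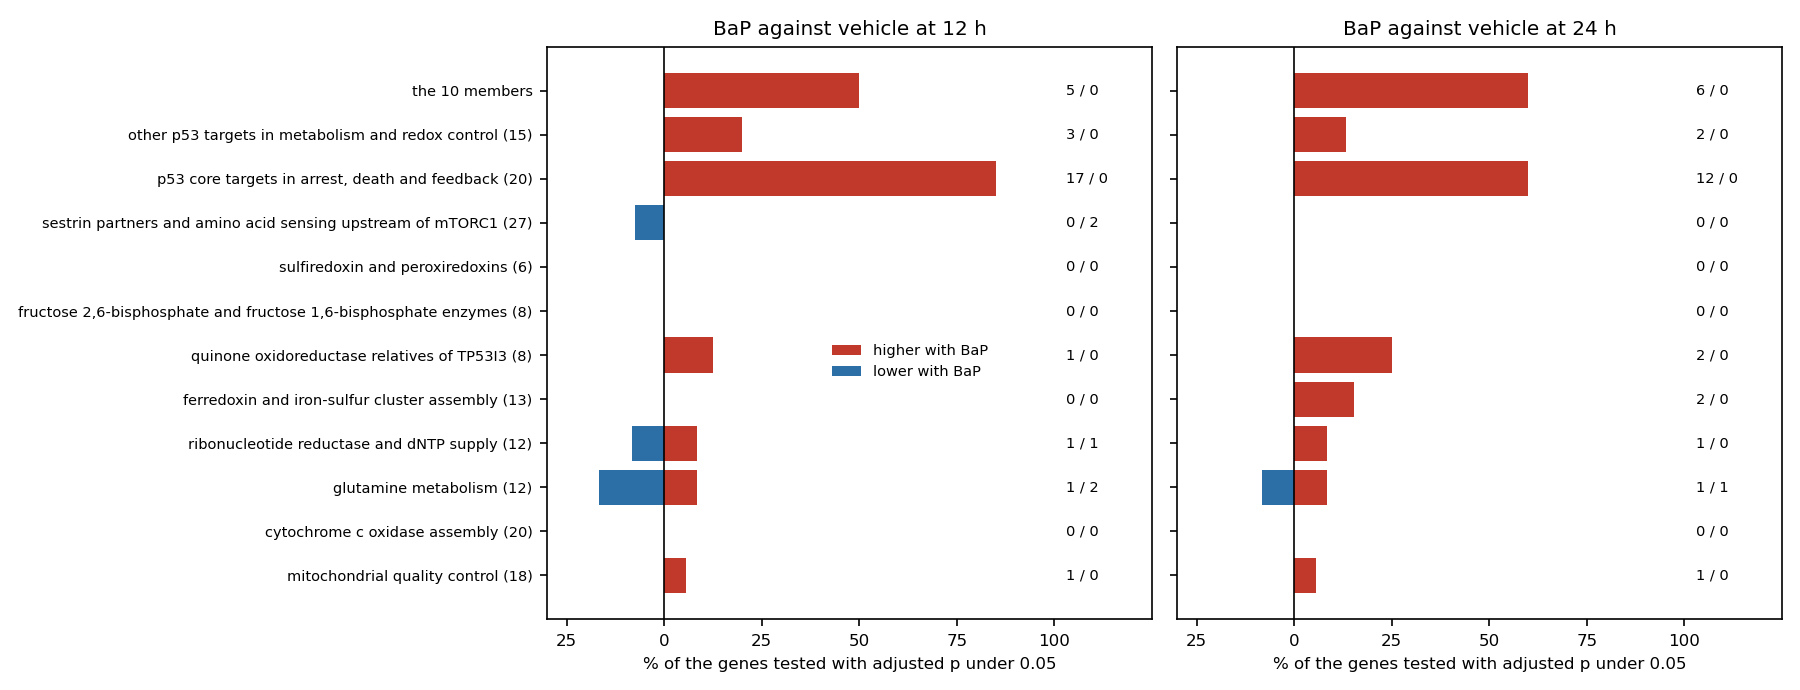
Share of tested genes that passed an adjusted p under 0.05 (horizontal axis, %; right of 0 higher and left of 0 lower with BaP) at 12 h and 24 h for the 10 genes and the lists of related genes, with the number tested in brackets and the counts higher / lower at the right. The core p53 targets have 17 of 20 higher at 12 h and 12 of 20 at 24 h, while the lists of peroxiredoxins, fructose bisphosphate enzymes and cytochrome c oxidase assembly have 0 at both times.

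Across the 8 libraries, the mean centred log2 CPM of the 10 genes was compared with that of 7160 other named genes with a mean log2 CPM over 4. The most alike by Pearson's r were MGST1, a membrane glutathione transferase (0.986), MAPK12, a stress-activated p38 kinase (0.986), SPP1, osteopontin (0.983), PTGR1 (0.980) and NQO1, a quinone reductase (0.975). These r describe libraries that form 4 groups and differ in depth. MGST1 had 159 and 164 CPM in BaP 12 h libraries, against 82.5 and 92.6 CPM in vehicle 12 h libraries, and 147 and 184 CPM in BaP 24 h against 80.9 and 75.9 CPM in vehicle 24 h libraries. These genes were chosen for following the members over the same libraries, so their own differences between BaP and vehicle are given here with no test. PTGR1 was tested above as a relative of TP53I3.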

How the data were processed

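Per the submitters' processing notes reads were aligned with Bowtie 0.12.7 and assigned by RSEM 1.1.7; the genome build and the use of strand are not given in the sources used here. The deposited expected counts per gene and transcript (Ensembl release 58) are unnormalised. The deposited fractions are the authors' RSEM shares of transcript molecules, used here as TPM. Expected counts were rounded for tests.

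Genes were named by Ensembl ID from a symbol table and GENCODE 29. In R 4.3.3, edgeR 4.0.16 kept genes by filterByExpr (minimum count 10, total 15), scaled by TMM and fitted 1 robust quasi-likelihood model to all 8 libraries, without a replicate term. The SE is the fold change divided by the square root of F. CPM use the TMM-scaled sizes. A transcript fit used all transcripts that passed the same filter, and a usage test only those with at least 10% of their gene. Tests were two-sided and tried on simulated data. Totals of 2592272 to 16533490 counts limit precision; floors (3 counts) cover counting error only. The 10 genes and the lists were chosen with earlier results of these data known. Text names all 10, the check genes CDKN1A, MDM2 and CYP1A1, up to 3 passing genes of each list with the smallest p per time (or the 1 with the smallest p), overlapping neighbours and the 5 most alike genes; some genes that this takes are not reported here. Of 192 list genes, 5 matched no ID. RefSeq windows (GRCh38.p14) gave the sequences. SCO2 had no window. Windows on chromosome 8, where RRM2B lies, were left out for the 10 genes but not for the 35116. Alternatives were DESeq2 1.42.0 (size factors; Wald test), no filter, the exact test, a replicate block, the comparison's libraries alone, posterior mean counts (RSEM's deposited expected counts averaged over its posterior), thinning, and leaving out each library.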

Additional observations from a re-analysis of the deposited data

How the results depend on the processing

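With a replicate block, 6 of the 10 genes rose at 12 h, 6 at 24 h and 0 passed for the difference or for vehicle over time. The labels do not say that a number marks 1 experiment across groups: deviations of same-numbered libraries correlated at 0.424 between BaP 12 h and vehicle 12 h but at -0.239 between BaP 12 h and BaP 24 h (7299 genes). Members called higher at 12 h (5) numbered 3 by DESeq2's Wald test and 3 with libraries thinned to 2592234 counts (1 draw), where TIGAR changed by 0.36 and SESN1 by 0.46, and 3 to 5 with 1 library left out. At 24 h (6) they numbered 3 to 7 with 1 library left out, and 4 when thinned. The difference had 1 call with no filter, and 0 to 1 with 1 library left out. At 24 h 1 transcript of the members passed with no filter and 1 with posterior mean counts, against 0. Changes that reversed were all of values that had not passed. With 1 library left out, the 12 h change lay between -0.88 and 0.17 for SESN3, -0.08 and 0.76 for SPATA18, -0.71 and 0.05 for FAM228B and -0.12 and 0.15 for SPRYD4. The 24 h change lay between -0.07 and 0.73 for SCO2, -0.01 and 0.36 for FAM228B and -0.16 and 0.44 for SPRYD4. The difference lay between -0.09 and 0.11 for SESN1 (0.20 when thinned), -0.36 and 0.11 for SESN2, -0.83 and 0.02 for RRM2B, -0.38 and 0.44 for SCO2 and -0.08 and 0.76 for SPATA18, and vehicle over time between -0.15 and 0.05 for SESN1, -0.10 and 0.16 for TP53I3 and -0.11 and 0.38 for SPATA18. The cause was not tested. Over all genes the counts ranged from 174 to 649 higher and 250 to 1000 lower at 12 h (503 and 713), and 95 to 1230 and 74 to 726 at 24 h (458 and 324).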
